A study of Mus musculus with 18 samples.

Results

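A set of 10 ion channel genes known from excitable endocrine cells was followed across the areas of the mouse thyroid lobe, before and after partial removal of the gland. The 10 genes were Abcc8, Abcc9, Kcnj11, Kcnj8, Cacna1a, Cacna1c, Cacna1d, Cacna2d1, Scn3a and Scn9a, and they were read through every non-control probe whose gene name in the scanner files was one of these symbols or an older alias. That gave 22 of the 41174 gene probes on the array. Of these, 9 probes for 6 of the 10 genes had a tissue signal well above background on at least 3 arrays, as had probes for 14679 genes in all. The set was chosen by the measured difference between central and peripheral areas of these arrays, which was known when the genes were proposed, so that difference is described below and calls for it support nothing, and tests are kept for the effect of surgery.

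Each of the 18 arrays carried RNA from 1 thyroid area, cut by laser capture from frozen sections of male C57BL/6 mice, in the red dye Cy5. The groups were the central area of dissected thyroid (partly removed by surgery, 5 arrays), the central area of normal thyroid (5 arrays), the peripheral area of dissected thyroid (5 arrays) and the peripheral area of normal thyroid (3 arrays). The areas are mixtures of cells and not one cell type. The labels give no age, no time after surgery and no link between an area and a mouse, so some areas may come from the same animal. Areas of 1 mouse within a group would make the p-values too small. A central and a peripheral area of 1 mouse would be a pair that the fit ignores. All arrays carried the same kind of commercial reference, a mix of RNA from 9 organs and embryo of Swiss Webster mice that included brain and lacked thyroid, in the green dye Cy3. Values below are log2 ratios of thyroid area over this reference, and a difference between groups is a difference of these ratios.

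The ATP-sensitive potassium channel (KATP channel) is built from pore subunits of the Kir6 family and regulatory sulfonylurea receptors (SUR). In pancreatic beta cells it closes when the cell's ATP rises, the membrane depolarises, voltage-gated calcium channels open and hormone is released by exocytosis, with sodium channels sharpening the action potentials. The parafollicular C cells of the thyroid, which secrete calcitonin, lie mainly in the central part of the mouse lobe and are electrically excitable, whereas the pairing of Kir6.1 with SUR2 is best known from the smooth muscle cells and pericytes of vessels.

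The captured tissue carried the defining thyroid transcript throughout. Thyroglobulin (Tg), the precursor protein of thyroid hormone, was well above background on all 18 arrays. The share of gene probes well above background ran from 24.8% to 43.8%, and it was at most 29.5% on 4 arrays (dissected central 1 and 2, dissected peripheral 1, normal peripheral 1) and at least 35.2% on the others. The arrays lay on 5 slides scanned on 2 days, and both days held arrays of every group.

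The probes that carry most of what follows are shown by their first 30 of 60 bases, as the scanner files list them, 5′ to 3′. They are printed so that the reader can see which stretch of each gene was read, above all where probes of 1 gene gave different answers.
Abcc8 probe 1: gccatcctggagtttgacaaaccggagaag
Abcc8 probe 2: tttttcttcttatgcccaaacctctgggct
Kcnj11 probe 1: agaaaaagaaatattgggaagttcagcctg
Abcc9 probe 1: tacttgggcaaatttcagtgataggcattg
Kcnj8 probe 1: actgtgtcctgatgactgagagacaatccg
Kcnj8 probe 2: cacgggtcatcatgaatatgttcaaatcta
Cacna1d probe 1: gagaattagagccaattctcacatgttcag
Positions in the files are on the mouse build mm7 (NCBI35), and all 7 of these probes are on the minus strand. Without a genome of that build, exon and untranslated regions under the probes were not determined. The 2 KATP pairs are neighbours in the genome. The Abcc8 and Kcnj11 probes lie 6.76 kb apart on chromosome 7, and the nearest Abcc9 and Kcnj8 probes lie 23.7 kb apart on chromosome 6.

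Abcc8 encodes SUR1, the sulfonylurea receptor of the beta cell KATP channel and the target of the diabetes drug glibenclamide. It was the 1 gene of the 10 with a wide difference between areas, being about 6 times as abundant in the central as in the peripheral area of both dissected and normal glands under the processing used here, and more than that under the scanner program's own. The log2 ratio of its probe 1 was -0.16, -1.60, 1.08, -0.14 and 0.16 on dissected central arrays 1 to 5. It was 0.82, 1.15, 1.04, 0.65 and 0.38 on normal central arrays 1 to 5. All 5 normal central arrays were above the reference, while the dissected central arrays were spread widely, with array 3 as high as normal and array 2 far below. The ratio was -2.37, -2.57, -2.79, -2.38 and -3.11 on dissected peripheral arrays 1 to 5, against -1.09, -1.88 and -2.34 on normal peripheral arrays 1 to 3. Every peripheral array was therefore below the reference, and within each state no central array overlapped a peripheral one, as was so for 1.67% of all genes in dissected and 4.85% in normal thyroid. The Cy5 spot intensity was 131 to 2307 on dissected central arrays, 1628 to 2960 on normal central arrays, 100 to 204 on dissected peripheral arrays and 104 to 241 on normal peripheral arrays. The Cy3 intensity of the reference, with 401 to 1106 on central arrays and 431 to 1094 on peripheral ones, did not follow the area. In these captured mixtures fewer cells of a type and less RNA per cell cannot be told apart.

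Central minus peripheral, Abcc8 differed by 2.51 (SE 0.36, 95% interval 1.76 to 3.26, 5.71-fold) in dissected thyroid and by 2.58 (SE 0.41, 95% interval 1.71 to 3.45, 5.98-fold) in normal thyroid. From the processed signals of Feature Extraction the differences were larger, at 3.64 and 3.72, as they were in the authors' deposited table, at 3.67 and 3.78. Among the 14679 genes the differences first given ranked 19th and 15th from the top. Within slides, the difference was above 0 on 5 of 5 slides in dissected thyroid (0.96 to 3.87) and on 3 of 3 slides in normal thyroid (1.91 to 3.04). Within scan days 1 and 2 it was 3.06 and 2.15 in dissected thyroid, and 3.18 and 2.27 in normal thyroid. With limma and Benjamini-Hochberg adjustment over all genes, 1 of the 6 measured channel genes, Abcc8, was past an adjusted p of 0.05 in each state, where 0.586% of all genes were past it in dissected and 0.279% in normal thyroid. Because the set was chosen on this very difference, that count is a description and tests nothing. In normal thyroid it was 0 when normal central array 1 or 3, or normal peripheral array 2 or 3, was left out, while the difference stayed between 2.30 and 2.92 over all arrays left out in turn. Without the 4 arrays of fewest detected probes, a choice made after the data were seen, it was 3.08 in dissected and 2.92 in normal thyroid.

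**Figure D1:**
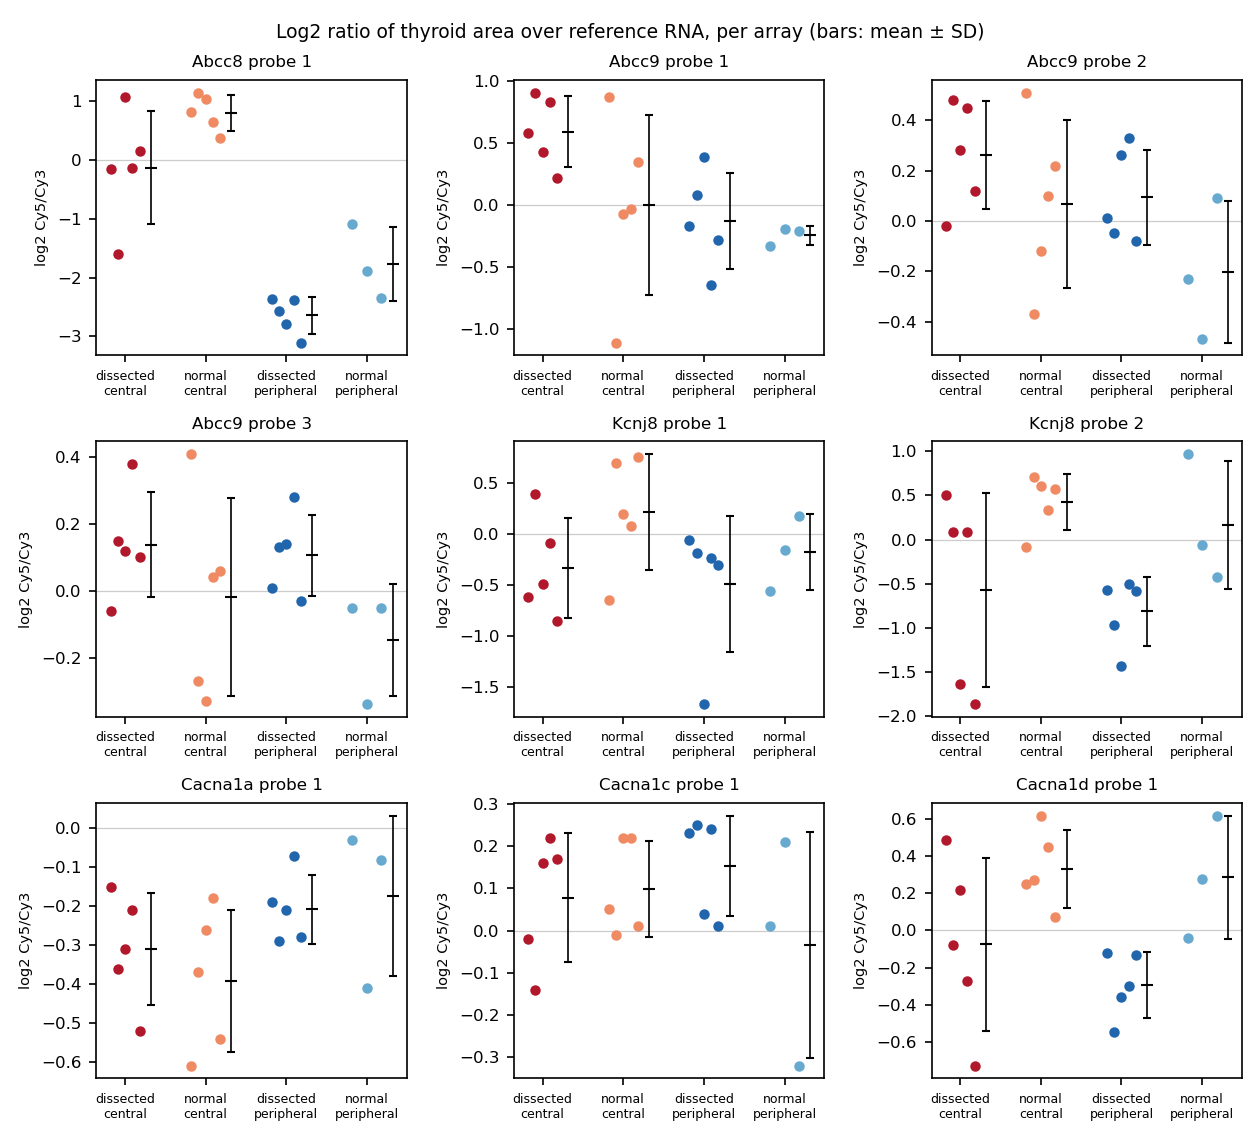
Log2 ratio of thyroid area over reference RNA (vertical axis, a scale of its own in each panel) for the 9 channel probes above background, with 1 point per array and bars giving mean ± SD, for dissected central (n = 5), normal central (n = 5), dissected peripheral (n = 5) and normal peripheral (n = 3). Abcc8 is the panel in which central and peripheral arrays of the same state do not overlap, at -1.60 to 1.15 in the central and -3.11 to -1.09 in the peripheral area.

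The mean Abcc8 difference, dissected minus normal, was below 0 in both areas, and neither difference passed the test. In the central area it averaged -0.13 ± 0.97 in dissected and 0.81 ± 0.31 in normal thyroid (SD, n = 5 each), a difference of -0.94 (SE 0.36, 95% interval -1.69 to -0.19, limma unadjusted p = 0.0171, adjusted p = 0.856). The arrays overlapped, and leaving out dissected central array 2 brought the difference to its smallest size of any array left out, -0.57. Dissected central arrays 1 and 2 are among the 4 arrays of fewest detected probes. Over all settings the central difference ran from -1.32 to -0.37. In the peripheral area it averaged -2.64 ± 0.31 in dissected (SD, n = 5) and -1.77 ± 0.63 in normal thyroid (SD, n = 3), a difference of -0.87 (SE 0.41, 95% interval -1.74 to -0.01, limma unadjusted p = 0.0487, adjusted p = 0.598). The probe was above background on 4 of 5 dissected and 2 of 3 normal peripheral arrays. Normal peripheral array 1, at -1.09, was not above background and is also among the arrays of fewest detected probes. Without it the difference was -0.53, its smallest size of any array left out. The arrays did not overlap, as was so for 4.2% of all genes, though -2.37 and -2.34 were the nearest values, and after scaling between arrays the sign turned, to 0.09. Within scan days 1 and 2 the difference was -0.37 and -1.32 in the central area, and -0.25 and -1.20 in the peripheral area. The change in the central minus that in the peripheral area was -0.07 (SE 0.55, 95% interval -1.22 to 1.08, limma adjusted p = 0.988), an interval that leaves room for about a 2-fold difference either way. The order of the group means was thus normal central, dissected central, normal peripheral and dissected peripheral, and neighbours that differ only by surgery did not differ beyond the test, while dissected central and normal peripheral arrays overlapped through dissected central array 2.

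The Abcc8 level moved with the genes of C cells. Of 19 C cell markers, 18 were measured and Ret was not above background. In dissected thyroid 10 of the 18 were called higher in the central area and none lower, with a median difference of 1.61, where 0.586% of all genes were called. In normal thyroid 8 were called higher and none lower, with a median of 1.96, where 0.279% of all genes were called. The median of all genes was 0.00 and 0.01. The list was chosen with earlier results of these data known, so these counts are a description and test nothing. Scg2, called in dissected thyroid, passed the filter only through central arrays, as did some uncalled markers. Those called in dissected thyroid were Scg3, Chgb, Pcsk2, Pcsk1, Calca, Chga, Snap25, Ddc, Gfra4 and Scg2. In normal thyroid all of these but Chga and Scg2 were called. Calca (calcitonin) was 4.50 higher in dissected and 3.83 higher in normal thyroid, and the granule protein gene Chgb 3.81 and 3.82 higher. These are among the largest differences of the list. Central minus peripheral, 17 of the 18 were above 0 in dissected thyroid, with the lowest at -0.10, and 18 of 18 in normal thyroid. The mean log2 ratio of the 18 per array was -0.84 to 0.87 in dissected central, 0.52 to 1.28 in normal central, -1.75 to -1.36 in dissected peripheral and -1.26 to -0.75 in normal peripheral areas. Over the 18 arrays, which share their reference and their area contrast, Abcc8 followed this mean with Pearson's r = 0.98. The correlation was 0.91 over the 10 central and 0.92 over the 8 peripheral arrays alone, and 0.86 for deviations from group means. Dissected central array 2 was the lowest central array in both (list mean -0.84, Abcc8 -1.60). Normal peripheral array 1 was the highest peripheral array in both (-0.75 and -1.09). Both are among the 4 arrays of fewest detected probes, and correlations without them were not run. The 3 genes most like Abcc8 over the 18 arrays were Pcsk2 and Pcsk1, which encode prohormone convertases, and the noncoding Snhg11, each at r = 0.98.

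The Abcc8 differences between dissected and normal thyroid did not pass the test. Beside them, the C cell markers had a median difference, dissected minus normal, of -0.60 in the central area, with 1 of 18 above 0. In the peripheral area it was -0.41, with 4 of 18 above 0. The median of all genes was -0.01 and 0.01. None of the markers was called in either area. Their mean was -0.01 and -0.84 on dissected central arrays 1 and 2, both among the 4 arrays of fewest detected probes. It was 0.87, 0.55 and 0.54 on dissected central arrays 3 to 5, against 0.52 to 1.28 in normal central areas. Of the neuronal markers, 4 of 10 were measured, and Elavl4 alone was called, in dissected thyroid, where 0.586% of all genes were called between areas. It was above background on 4 of 5 dissected central, 5 of 5 normal central and no peripheral arrays. Elavl4 thus passed the filter only through central arrays, so a higher central value is built into its selection and the call tests nothing. Against the detection limit, its central mean was 4.76-fold higher than the peripheral one in dissected thyroid. That central mean includes an array at background, so the fold is no strict bound. The parathyroid hormone gene Pth had a log2 ratio of 3.99 on normal central array 3, which also had the highest C cell mean, and of -5.17 to -1.80 on the other 17 arrays. Without that array the Abcc8 difference between areas of normal thyroid was 2.52 and that between dissected and normal central areas was -0.88. The part that the number of C cells, neurons or parathyroid cells played in the Abcc8 values was not tested.

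**Figure D2:**
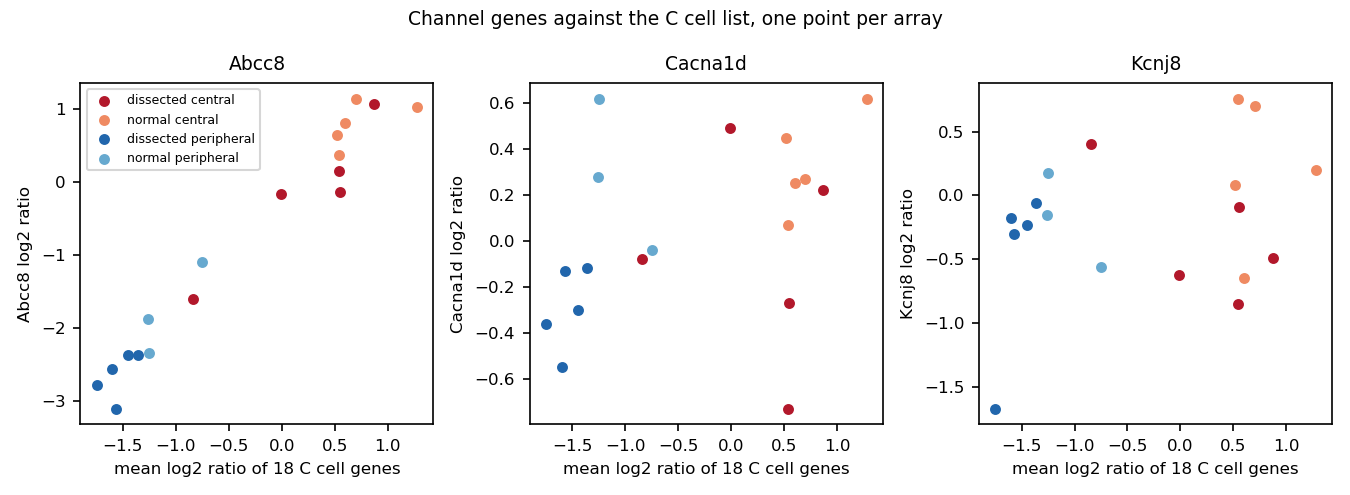
Log2 ratio of Abcc8, Cacna1d and Kcnj8 (vertical axes) against the mean log2 ratio of the 18 measured C cell genes (horizontal axis), with 1 point per array coloured by group. Abcc8 lies along a line over all 18 arrays (r = 0.98), while Cacna1d (r = 0.37) and Kcnj8 (r = 0.27) scatter.

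Abcc8 probe 2 gave no reading. It was not well above background on any of the 18 arrays in either channel, with Cy5 intensities of 65 to 150 and Cy3 intensities of 91 to 115, although the reference RNA gave probe 1 a signal above background on all 18. The file's coordinates start at the same base for both probes, chr7:42280740-42280748 for probe 1 and chr7:42280740-42280763 for probe 2. They cover 9 and 24 of the 60 bases, so where the rest of each probe lies is not known from them. The sequences share no stretch longer than 6 bases. The Abcc8 result thus rests on 1 probe.

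Kcnj11 encodes Kir6.2, the pore that SUR1 assembles with in beta cells and neurons. Its single probe, at chr7:42273983-42274042, was not well above background on any array in Cy5 or in Cy3. Its Cy5 intensity ran from 70 to 161, its Cy3 intensity from 104 to 130, and its log2 ratio from -0.25 to 0.05. Groups are not compared for it, since values at background have no order. The partner of Abcc8 was therefore not detectable with this probe, in the thyroid areas or in a reference that contained brain.

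Abcc9 encodes SUR2, the regulatory subunit of cardiac and smooth muscle KATP channels. All 3 of its probes passed the filter. The brightest, probe 1 at chr6:142676908-142676967, was above background on all 18 arrays. Its log2 ratio was 0.58, 0.91, 0.43, 0.83 and 0.22 on dissected central arrays 1 to 5, against 0.87, -1.11, -0.07, -0.03 and 0.35 on normal central arrays 1 to 5. It was -0.17, 0.08, 0.39, -0.64 and -0.28 on dissected peripheral arrays 1 to 5, against -0.33, -0.19 and -0.21 on normal peripheral arrays 1 to 3. All dissected central arrays were above the reference, the normal central arrays spanned nearly 2 log2 units and overlapped them, and the normal peripheral arrays lay close together.

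The Abcc9 group means ran from 0.59 ± 0.28 in dissected central and 0.00 ± 0.73 in normal central (SD, n = 5 each) to -0.12 ± 0.39 in dissected peripheral (SD, n = 5) and -0.24 ± 0.07 in normal peripheral areas (SD, n = 3). Dissected minus normal, it differed by 0.59 in the central area (SE 0.28, 95% interval 0.01 to 1.17, limma unadjusted p = 0.0461, adjusted p = 0.938) and by 0.12 in the peripheral area (SE 0.32, 95% interval -0.55 to 0.79, limma adjusted p = 0.949). Neither passed the test, and without normal central array 2, at -1.11, the central difference was 0.31. The other probes gave smaller values in the central area, 0.20 (SE 0.17) for probe 2 and 0.16 (SE 0.14) for probe 3, and 0.29 and 0.26 in the peripheral area. Probe 3 did not overlap between the peripheral groups, as was so for 4.2% of all genes. It was above background on 2 of 5 dissected and 0 of 3 normal arrays there, so most of these values have no order. Against the detection limit the dissected mean was 1.17-fold higher. That mean includes arrays at background, so the fold is no strict bound. Within scan days 1 and 2 probe 1 differed by 0.67 and 0.54 in the central and by 0.09 and 0.14 in the peripheral area. Central minus peripheral, probe 1 differed by 0.71 (SE 0.28) in dissected and 0.24 (SE 0.32) in normal thyroid, against 0.17 and 0.27 for probe 2 and 0.03 and 0.13 for probe 3. Probes 2 and 3 followed each other with r = 0.88 over the 18 arrays, and probe 1 followed them with r = 0.70 and 0.57. In the files probe 1 carries a different transcript accession from probes 2 and 3, all 3 lying within one stretch of chromosome 6.

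Kcnj8 encodes Kir6.1, the pore that pairs with SUR2 in vessel walls. Both of its probes passed. Probe 1, at chr6:142653175-142653234, read -0.62, 0.40, -0.49, -0.09 and -0.85 on dissected central arrays 1 to 5, against -0.65, 0.70, 0.20, 0.08 and 0.76 on normal central arrays 1 to 5. It read -0.06, -0.18, -1.67, -0.23 and -0.30 on dissected peripheral arrays 1 to 5, against -0.56, -0.15 and 0.18 on normal peripheral arrays 1 to 3. The groups overlapped in both areas, and dissected peripheral array 3 stood far below the rest.

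The Kcnj8 difference, dissected minus normal, was -0.55 in the central area (SE 0.32, 95% interval -1.23 to 0.13, limma adjusted p = 0.998; -0.43 and -0.63 within scan days 1 and 2) and -0.31 in the peripheral area (SE 0.37, 95% interval -1.10 to 0.48, limma adjusted p = 0.868). Without dissected peripheral array 3 the peripheral difference was -0.01. Its sign turned after median centring (0.20) and after scaling between arrays (0.07), and within scan days 1 and 2 it was -1.13 and 0.18. Probe 2, at chr6:142652658-142652717, read 0.51, 0.08, -1.64, 0.08 and -1.87 on dissected central arrays 1 to 5, against -0.09, 0.71, 0.61, 0.34 and 0.57 on normal central arrays 1 to 5. Arrays 3 and 5 of the dissected central group were low and the others were within the range of the normal group. On the peripheral arrays probe 2 ran from -1.44 to -0.51 in dissected and from -0.43 to 0.97 in normal thyroid, with no overlap, as was so for 4.2% of all genes. Its differences were -0.99 in the central area (SE 0.40, limma unadjusted p = 0.0248, adjusted p = 0.871) and -0.98 in the peripheral area (SE 0.47, limma unadjusted p = 0.0514, adjusted p = 0.650). Neither passed the test, and the probes followed each other with r = 0.57. Central minus peripheral, probe 1 differed by 0.16 (SE 0.32) in dissected and 0.39 (SE 0.37) in normal thyroid, and probe 2 by 0.25 (SE 0.40) and 0.27 (SE 0.47).

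Abcc9 and Kcnj8, whose products join in 1 channel, did not vary together over the 18 arrays (r = -0.29). Against the mean of the 9 measured of 10 markers of vessel mural cells (Des was not above background), Kcnj8 had r = 0.49 and Abcc9 had r = -0.31. That mean ran from -0.41 to 0.53 in dissected central, -0.62 to 0.43 in normal central, -0.42 to 0.48 in dissected peripheral and -0.52 to 0.15 in normal peripheral areas, so the groups overlapped. None of the 9 was called in any comparison, and their median difference, dissected minus normal, was -0.02 in the central and 0.16 in the peripheral area. The genes most like Abcc9 were Cep120 (r = 0.78), Txndc11 (r = 0.72) and Dok7 (r = 0.70), and those most like Kcnj8 were LOC665123 (r = 0.89), 2610027H17Rik (r = 0.84) and Stk10 (r = 0.82).

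The calcium channel pores were close to the limit of detection. Cacna1d encodes Cav1.3, an L-type pore that opens at fairly negative voltages and paces chromaffin and sinoatrial cells. Its probe 1, at chr14:27470881-27470940, was above background on 14 of 18 arrays. The log2 ratio was 0.49, -0.08, 0.22, -0.27 and -0.73 on dissected central arrays 1 to 5, against 0.25, 0.27, 0.62, 0.45 and 0.07 on normal central arrays 1 to 5. It was -0.12, -0.55, -0.36, -0.30 and -0.13 on dissected peripheral arrays 1 to 5, against -0.04, 0.28 and 0.62 on normal peripheral arrays 1 to 3. All dissected peripheral arrays were below all normal peripheral arrays, as was so for 4.2% of all genes, and the central groups overlapped. The nearest peripheral values, -0.12 on dissected array 1 and -0.04 on normal array 1, were both not above background.

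Dissected minus normal, Cacna1d differed by -0.41 in the central area (SE 0.19, 95% interval -0.81 to 0.00, limma adjusted p = 0.952) and by -0.58 in the peripheral area (SE 0.22, 95% interval -1.05 to -0.10, limma unadjusted p = 0.0198, adjusted p = 0.565). Neither passed the test. Both kept their sign under every alternative setting run, at -0.72 to -0.24 in the central and -0.94 to -0.39 in the peripheral area. Within scan days 1 and 2 the differences were -0.56 and -0.30 in the central, and -0.94 and -0.39 in the peripheral area. Between areas the gene differed by 0.22 (SE 0.19) in dissected and 0.05 (SE 0.22) in normal thyroid, central minus peripheral. The other 3 Cacna1d probes were not above background on any array. Over the 18 arrays Cacna1d had r = 0.41 with Abcc8 and r = 0.50 with the mean of the 8 endothelial markers, and the genes most like it were the unannotated NAP026710-1 (r = 0.78), B230217C12Rik (r = 0.76) and Plcl2 (r = 0.74).

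Cacna1c encodes Cav1.2, the L-type pore of heart and smooth muscle and the main L-type channel of mouse beta cells. Its probe 1, at chr6:118618739-118618798, passed the filter only through 3 of 5 normal central arrays and was above background on none of the other 13, so a higher normal central value is built into its selection. Values at background have no order, so no difference between groups is read from it. Its differences drawn or listed further on only record how the settings behaved. The log2 ratio averaged 0.08 ± 0.15 in dissected central and 0.10 ± 0.11 in normal central areas (SD, n = 5 each), and 0.15 ± 0.12 in dissected peripheral (SD, n = 5) and -0.04 ± 0.27 in normal peripheral areas (SD, n = 3). Every group overlapped every other, and probe 2 was above background on no array.

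Cacna1a encodes Cav2.1, the P/Q-type pore of nerve terminals that is also found in beta cells. Its probe 1, whose 60 bases the files place over a span of 1973 bases at chr8:83220770-83222742, was above background on 6 of 18 arrays, of which 1 was dissected central, 3 normal central, 1 dissected peripheral and 1 normal peripheral, and probe 2 on 1 normal central array. Probe 1 averaged -0.31 ± 0.15 in dissected central and -0.39 ± 0.18 in normal central areas (SD, n = 5 each), and -0.21 ± 0.09 in dissected peripheral (SD, n = 5) and -0.17 ± 0.21 in normal peripheral areas (SD, n = 3). All groups overlapped. The difference, dissected minus normal, was 0.08 in the central area (SE 0.12, 95% interval -0.16 to 0.33, limma adjusted p = 0.998) and -0.04 in the peripheral area (SE 0.13, 95% interval -0.32 to 0.25, limma adjusted p = 0.971). From Feature Extraction's own processed signals, which differ in background correction and in normalization, the signs were turned, at -0.41 and 0.10. Central minus peripheral, Cacna1a differed by -0.11 (SE 0.12) in dissected and -0.22 (SE 0.13) in normal thyroid. The genes most like Cacna1a were Rragd (r = 0.82), Ubxn6 (r = 0.80) and Dlgap2 (r = 0.76), and those most like Cacna1c were 1810030O07Rik (r = 0.82), Col11a1 (r = 0.77) and a transcript known in the files by an Ensembl ID (r = 0.77). The Cacna1c correlations rest mostly on values at background.

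Cacna2d1, the auxiliary α2δ-1 subunit that raises the number of calcium channels at the membrane and binds gabapentin, had no probe above background on any array. Its 2 probes gave Cy5 intensities of 61 to 169 and 65 to 129. The sodium channel pores were at the same floor. The probes of both genes lie on chromosome 2, the nearest of them 990 kb apart. Scn3a encodes Nav1.3 and Scn9a encodes Nav1.7, the sodium channels best known from mouse pancreatic islets. Of 3 Scn3a probes, probe 1 was above background on normal central array 4 alone, at a Cy5 intensity of 145, and the others on none, while the single Scn9a probe was above background on none, at 63 to 135. Over the 11 channel probes that were above background on no array, Cy5 intensity ran from 61 to 172 and the log2 ratio from -0.39 to 0.37.

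**Figure D3:**
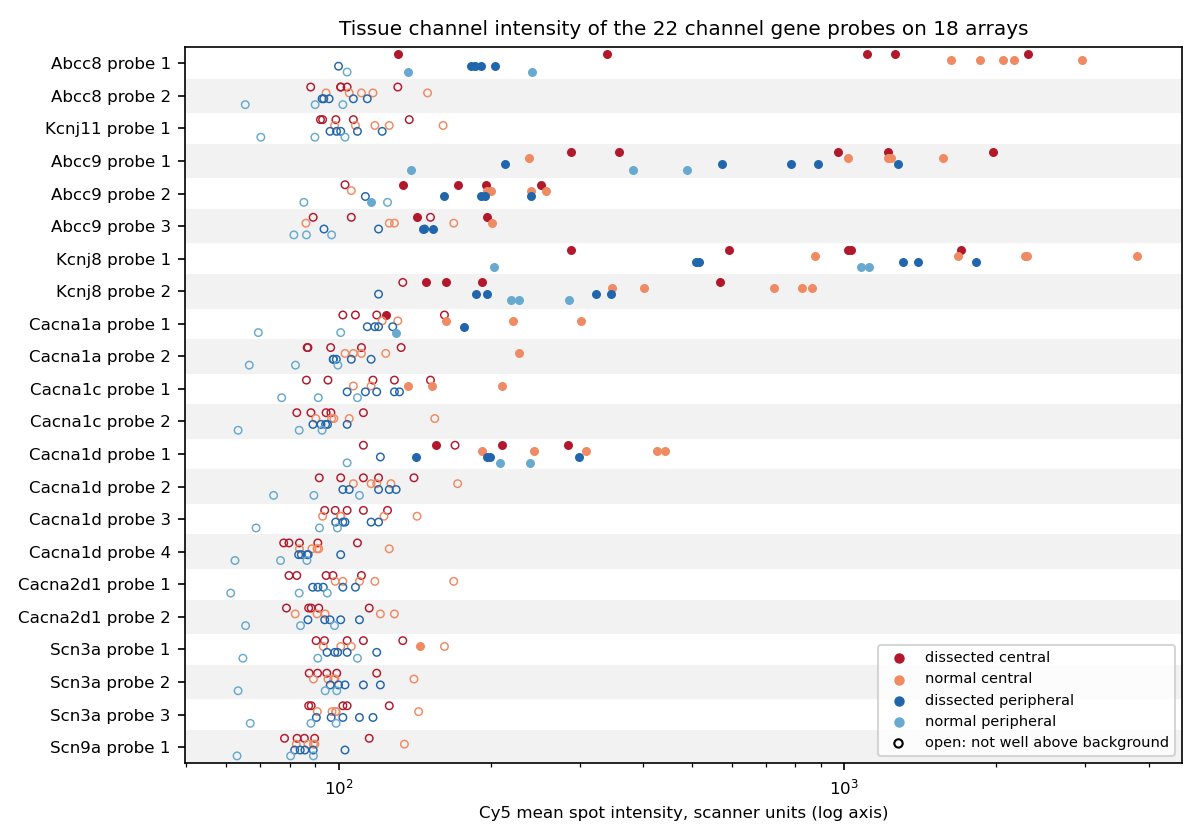
Cy5 mean spot intensity in scanner units (log axis) of all 22 channel probes, with 1 point per array, coloured by group and filled where the spot was well above background. The 4 genes Kcnj11, Cacna2d1, Scn3a and Scn9a stay between 61 and 169 with 1 filled point, while Abcc8 probe 1 reaches 2960 on a normal central array.

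Over the 6 measured channel genes, 0 were called by limma for dissected against normal thyroid in the central area and 0 in the peripheral area, and 0 for the difference between the areas. The share of all genes called was 0% in each of these comparisons. At an unadjusted p under 0.05 there were 2 of 6 in the central area (Abcc8 and Abcc9, where 5.25% of all genes were past it), 2 of 6 in the peripheral area (Abcc8 and Cacna1d, where 8.34% were) and 0 of 6 for the difference between areas (where 5.82% were). With 6 genes these counts say little about the channels as a group. Beside Abcc8, the change in the central minus that in the peripheral area was 0.47 for Abcc9, -0.24 for Kcnj8, 0.12 for Cacna1a and 0.17 for Cacna1d, with limma adjusted p between 0.841 and 0.937.

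**Figure D4:**
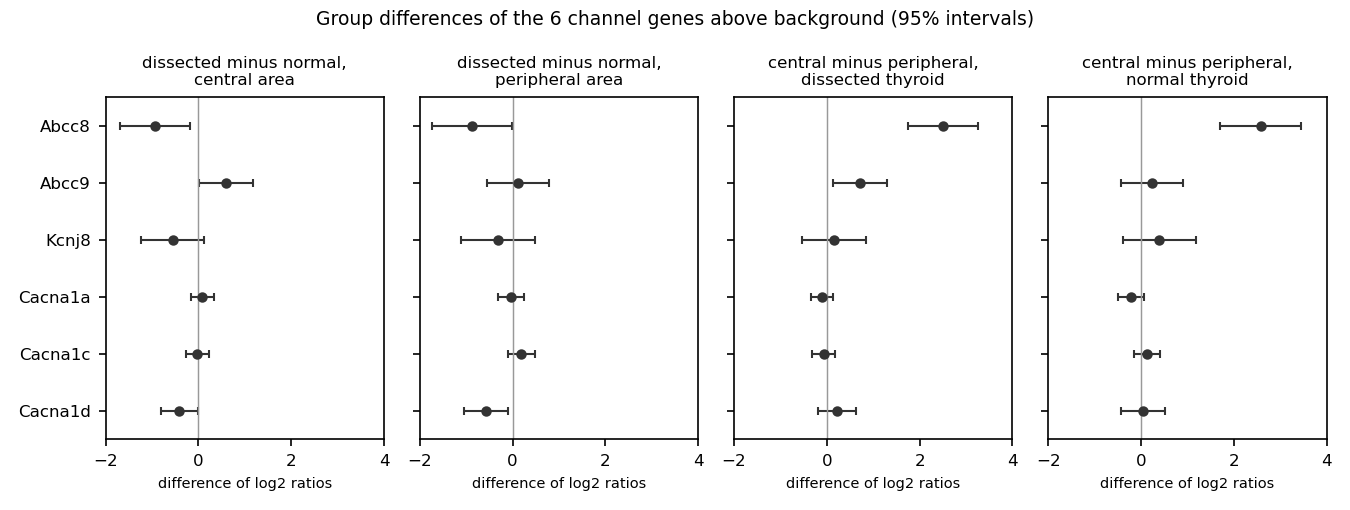
Differences of log2 ratios with 95% intervals (horizontal axis) for the 6 channel genes above background, in dissected minus normal thyroid (left panels) and central minus peripheral area (right panels). Cacna1c is drawn although only normal central arrays were above background. Of the intervals drawn, those of Abcc8 between areas alone lie wholly above 1, at 1.76 to 3.26 for dissected glands and 1.71 to 3.45 for normal glands.

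The wider channel families contained no called gene in any of the 5 comparisons. Of all genes, 0.586% were called between areas in dissected and 0.279% in normal thyroid, and 0% for the effect of surgery. In lists this short, an absence of calls therefore says little about the channels. Of the other calcium channel subunits 10 of 22 were measured, of the other sodium channel subunits 5 of 13, of the other potassium channels of endocrine cells 18 of 33, and of genes that sense glucose and calcium upstream of the channels 12 of 14. The sodium channel list stood highest between areas, with a median difference, central minus peripheral, of 0.67 in dissected thyroid (5 of 5 above 0) and 0.22 in normal thyroid (4 of 5 above 0), where the median of all genes was 0.00 and 0.01. Its members Scn2b, an auxiliary β subunit, and Scn8a, the Nav1.6 pore, differed by 0.81 and 1.22 in dissected and by 1.03 and 0.64 in normal thyroid. Scn8a was above background on 2 of 5 central and 1 of 5 peripheral arrays of dissected thyroid. In normal thyroid it was above background on 4 of 5 central and 1 of 3 peripheral arrays. Camk2b, a calcium-dependent kinase, differed by 1.03 (SE 0.26, limma adjusted p = 0.0979) in dissected thyroid. There it was above background on 4 of 5 central and 1 of 5 peripheral arrays. In normal thyroid it was above background on 5 of 5 central and 0 of 3 peripheral arrays. Most peripheral values of Scn8a and Camk2b were thus at background and have no order. Gipr, the receptor for the incretin GIP, differed by 0.53 in dissected and 0.95 in normal thyroid. Rims2, an active zone protein of exocytosis, and the auxiliary calcium channel subunit Cacna2d3, a relative of Cacna2d1, passed the filter only through central arrays, so a higher central value is built into their selection. Rims2 was above background on 3 of 5 normal central arrays, and Cacna2d3 on 2 of 5 dissected and 4 of 5 normal central arrays. Against the detection limit, the central mean was 1.38-fold higher for Rims2 in normal thyroid. For Cacna2d3 it was 1.25-fold higher in dissected and 1.35-fold in normal thyroid. These central means include arrays at background, so the folds are no strict bounds. The potassium pore Kcnq1 differed by 0.70 in dissected and 0.20 in normal thyroid. None of these passed the adjusted test.

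Dissected minus normal, the medians of the 4 lists lay near that of all genes in the central area, at -0.03 for calcium channels, 0.09 for sodium channels, 0.10 for potassium channels and 0.01 for the sensing genes, against -0.01 for all genes. In the peripheral area they were -0.04, -0.24, -0.06 and -0.07, against 0.01 for all genes. The inward rectifier Kcnj16 differed by 0.78 in the peripheral area (SE 0.33, limma adjusted p = 0.578) and by 0.08 in the central area, and Scn8a by -0.97 in the peripheral area (SE 0.49, limma adjusted p = 0.615). Neither passed the test. Scn8a was above background on only 1 of 5 dissected and 1 of 3 normal peripheral arrays, so most of the values compared were at background and have no order.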

How the data were processed

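Each scanner file was written by Agilent Feature Extraction, version 9.5.1.1 per the file headers and 8.5.1.1 per the submitters' processing notes. The deposited columns used were the intensity of spot and background in Cy5 and Cy3, the log10 ratio of the program's processed signals, and its spot flags. Linear ratios of 40934 probes were deposited by the authors in a separate table, with column medians of 0.871 to 1.06. After centring it followed the scanner ratio at r = 0.975 to 1.00, which gave scale and direction. What the authors did before the centring is unknown, and the table served only as an alternative. Probes were named through a RefSeq gene table where it matched.

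Here, mean intensities were background-corrected with normexp (offset 50), normalized by loess within each array, and spots of a probe averaged. Control and non-uniform spots were left out. A probe was kept if well above background in Cy5 on at least 3 arrays (19102 probes), and the brightest stood for its gene (14679 genes). One limma model (version 3.58.1, R 4.3.3, data.table at 1.17.8) of the 4 group means used all 18 arrays, with Benjamini-Hochberg adjustment over all genes and calls at an adjusted p under 0.05. Tests are two-sided, and p-values measure the spread between captured areas, which may share animals. The number of arrays limits the precision. The code was tested on simulated data. No dyes were swapped.

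Members and lists were chosen with earlier results of these data known. Every member is named by every probe. A list gene is named where called, otherwise at most the 3 of smallest p per list, and the 3 genes of highest r are named per measured member. Alternatives were other background corrections, normalizations, filters, probes, batch terms, a replicate block, Cy5 alone, the deposited table and each array left out. Groups share replicate numbers, and the fit has no block for them. Arrays of the same number lay on the same slide, except normal peripheral array 3. A gene above background on no array of a group is given by a fold from Cy5 values, with lower values of that group set to the detection limit. The brighter group's mean can include arrays at background, so the fold is only an approximate bound. No fold is given where it passes the fold of the ratios.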

Additional observations from a re-analysis of the deposited data

Results flagged for a closer look

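Kcnj8 probe 1 on dissected peripheral array 3 had a log2 ratio of -1.67, while the other 4 arrays of that group lay between -0.30 and -0.06. The gap to the nearest array was 0.851 of the group's range, past Dixon's critical value for 5 samples. It was 1 of 27 groups examined over the 9 probes, and chance marks about 5% of groups.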

How the results depend on the processing

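The 33 planned settings and 2 added after seeing the data gave 618 values of the 18 dissected-against-normal differences of the 6 genes. Of these, 584 kept their direction, 34 changed sign and 0 were called. The changes of sign with settings other than leaving out an array were these; the cause was not tested. For Cacna1a they were -0.41, 0.10 and -0.51 (central, peripheral, difference between areas) from processed signals, -0.42, 0.13 and -0.55 from the deposited table, -0.20 and -0.12 (central, difference) from Cy5 alone, 0.05 and -0.06 (peripheral, difference) with median centring, -0.04 (central) on scan day 1, and 0.03 (peripheral) without the 4 weakest arrays. For Cacna1c it was 0.09 (central) without those arrays. For Abcc8 they were 0.09 (peripheral) with scaling, and 0.02, 0.01 and 0.16 (difference) with offset 10, a slide block and without those arrays. For Kcnj8 they were 0.20, 0.07 and 0.18 (peripheral) with median centring, scaling and scan day 2 alone, and 0.70 (difference) on scan day 1. For the difference between areas, median centring gave -0.18 for Abcc9 and -0.12 for Cacna1d, and the second Abcc9 probe gave -0.10. With arrays left out in turn, ranges that crossed 0 were -0.05 to 0.04 for Cacna1c (central), -0.01 to 0.25 for Abcc9 and -0.15 to 0.04 for Cacna1a (peripheral), and -0.41 to 0.30 for Abcc8 (difference).

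The count of 1 channel gene called between areas was 0 within either scan day in both states, and 0 with the replicate block in normal thyroid, where Abcc8 differed by 2.64. These counts concern the difference the set was chosen on and test nothing. With arrays left out it was 0 to 1 in normal thyroid. Over all settings Abcc8 differed by 2.03 to 3.67 in dissected and 2.27 to 3.78 in normal thyroid, largest with the deposited table. The block changed no other count of channel genes. Same-numbered arrays deviated together at r = -0.07 to 0.23, over 0.1 in 4 of 5 pairs of areas of dissected thyroid and in 1 pair of each other comparison, so the numbers were not taken as pairs.

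Of all genes, 86 were called between areas in dissected and 41 in normal thyroid. These counts were 47 and 154 with median centring, 30 and 95 with scaling, 45 in dissected with Cy5 alone, 78 in normal with processed signals and 94 with the deposited table, 58 and 8 with no filter, 19 in dissected with the groups compared alone, 17 with a slide block and 4 with the replicate block in normal, 26 and 1 on scan day 1, 0 and 0 on scan day 2, and 195 and 95 without the weak arrays. Leaving out 1 array gave 46 to 173 and 1 to 76. For dissected against normal, the peripheral count of 0 became 7 with median centring and 1 with processed signals or the deposited table, and that of the difference between areas became 4 with median centring. Leaving out 1 array gave 0 to 1 in the central and in the peripheral area. Groups compared alone give no difference between areas, and the filter at 9 arrays left Cacna1a and Cacna1c without a value. Arrays of 3 to 5 per group, probes near background and 1 working Abcc8 probe limit these results.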
